A study of Mus musculus with 10 samples.

Results

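The genes described here are Igf2bp1, Igf2bp2, Igf2bp3, Lin28b, Hmga1 and Hmga2, a set of RNA-binding and chromatin proteins best known from embryonic tissue. They were taken by symbol from the deposited gene expression table, in which all 6 were found among 24543 entries. Each was followed through dorsal skin of C57BL/6 mice in 4 groups. At postnatal day 60 (P60) there were 2 Dlx4 knockout (KO) and 2 wild-type (WT) samples, and at postnatal day 1 (P1) 3 KO and 3 WT samples. Dlx4 encodes a homeobox transcription factor of the distal-less family, and the study asked what its ablation changes in skin. How the allele was made and whether a sample pooled several animals is something the sources used here do not give.

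The 3 Igf2bp proteins bind messenger RNAs, among them that of the growth factor Igf2, and affect their stability, transport and translation. Lin28b blocks the maturation of let-7 microRNAs, which in turn repress Lin28b itself, the Igf2bp genes and Hmga2. Hmga1 and Hmga2 are small proteins that bind AT-rich DNA through AT-hook motifs and loosen chromatin. Most are abundant in embryonic and dividing cells and are known to fall as tissues mature.

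The let-7 microRNAs are shown because they connect the 6 genes. Small RNAs were not measured in these libraries. Of 11 mature let-7 family names in mouse RefSeq (GRCm38.p6), 10 share 1 seed, bases 2 to 8, given in capitals, while let-7j has a seed of its own.
let-7a-5p: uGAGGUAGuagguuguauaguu
let-7b-5p: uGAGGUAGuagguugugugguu
let-7g-5p: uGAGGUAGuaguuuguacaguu
let-7j: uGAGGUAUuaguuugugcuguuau

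The letters CTACCTC, which pair with the shared seed, were searched on the sense strand of the annotated 3′ UTRs (mm10, GENCODE M21). All 6 genes hold at least 1 match. There are 4 in each of Igf2bp1, Lin28b and Hmga2, and 1 in each of Igf2bp2, Igf2bp3 and Hmga1. Of the 3′ UTRs of 20979 genes, 9.0% hold a match. Among UTRs within 20% of the same length, 4 or more matches occur in 0.36% for Igf2bp1, 0.24% for Lin28b and 0.13% for Hmga2. At least 1 match occurs in 12.1% of such UTRs for Igf2bp2, 13.3% for Igf2bp3 and 7.9% for Hmga1. The first match of each gene after its stop codon is printed in a window of 30 bases of the transcript strand, with the match in capitals, to show how the flanks differ around the same 7 bases. A match is a description of the letters and not a measured site.
Igf2bp1, chr11:95961770-95961799, minus strand: ctgtgcgaagtaaaCTACCTCaaggtgtga
Igf2bp2, chr16:22059465-22059494, minus strand: cacacaaataaaagCTACCTCaggtgtttt
Igf2bp3, chr6:49086779-49086808, minus strand: gcatttttactcaaCTACCTCaggtattca
Lin28b, chr10:45381014-45381043, minus strand: cccgggcgggaagtCTACCTCatgcaagca
Hmga1, chr17:27563278-27563307, plus strand: cctctgttcacaaaCTACCTCtggacggtt
Hmga2, chr10:120364216-120364245, minus strand: ccgacattcaatttCTACCTCagcatcagt

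Expression is given as the authors' RPKM, reads scaled by gene length and by library size, from 36131011 to 74916106 alignments per library. In the knockout check, Dlx4 had 1.95 ± 0.443 RPKM in P1 KO skin and 3.38 ± 0.427 RPKM in P1 WT skin (SD, n = 3 each). The groups did not overlap, as in 4.56% of all tested genes at P1. The difference was not called, which needs an adjusted p under 0.05 (log2 change -0.67, adjusted p = 1.0 in limma). In that comparison 0 of all tested genes were called, and 0.185% had as negative a change as Dlx4. At P60 it lay between 0 and 0.125 RPKM in all 4 libraries, so there it cannot check the labels. The P60 libraries were sequenced in 1 run and the P1 libraries in a different one, so that effects of age and of run cannot be told apart. RNA of the Y-linked gene Eif2s3y was at 22.3 to 26.9 RPKM in the 4 P60 libraries and at 35 RPKM in P1 KO replicate 2, but at 0 to 0.0164 RPKM in the other 5 P1 libraries. Xist was at 29.2 to 39.8 RPKM in those 5 libraries and at 0.105 RPKM or less in the rest, so sex differed with age except in P1 KO replicate 2. Keratinocyte marker genes, named for the tissue check, were present in all 10 libraries but differed in sum between ages. They summed to 6080 to 7650 RPKM at P60 and to 10600 to 14900 RPKM at P1. Of these 9 genes 4 were called lower at P60, 2 higher and 3 not, against 57.3% lower and 24.3% higher over all tested genes. The labels do not say whether replicates were separate animals or litters, so p-values measure only the spread between these samples.

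Igf2bp3 was the member with the largest difference between ages, on the log2(RPKM + 0.5) scale used for all tests. It had 0.380 and 0.316 RPKM in P60 KO skin and 0.438 and 0.313 RPKM in P60 WT skin. At P1 it had 11.9, 13.7 and 14 RPKM in KO skin and 13.9, 12.7 and 11.4 RPKM in WT skin. Every P60 library lay far below every P1 library, while KO and WT overlapped at both ages. The mean was 0.362 ± 0.0594 RPKM at P60 (SD, n = 4) and 12.9 ± 1.08 RPKM at P1 (SD, n = 6), a level 35.8 times as high at P1. The log2 change, P60 minus P1, was -3.96 (95% interval -4.16 to -3.77, limma adjusted p = 9.23e-10). Of the 14026 tested genes, 0.934% had as negative a change, but Igf2bp3 passed the filter for testing through P1 libraries alone. The gene lies at chr6:49085223-49214957 on the minus strand, and 35.2% of its exonic length is shared with Malsu1 on the other strand. Malsu1 was higher at P60, at 16 to 30.3 RPKM, than at P1, at 11.0 to 13.6 RPKM. The sources used here do not give whether reads were counted by strand.

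Igf2bp2, the family member known for its roles in metabolism and muscle, was also far lower in adult skin. It had 0.959 and 0.951 RPKM in P60 KO skin and 0.595 and 0.814 RPKM in P60 WT skin. At P1 it had 10.6, 9.73 and 11.0 RPKM in KO skin and 11.3, 9.04 and 12.0 RPKM in WT skin. The ages did not overlap, and Igf2bp2 had a higher RPKM in adult skin than its 2 relatives. Its mean was 0.83 ± 0.17 RPKM at P60 (SD, n = 4) and 10.6 ± 1.08 RPKM at P1 (SD, n = 6). The log2 change was -3.07 (95% interval -3.28 to -2.85, limma adjusted p = 6.65e-09), and the P1 level was 12.8 times that at P60. The gene lies at chr16:22059009-22163299 on the minus strand.

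Igf2bp1, the founding zipcode-binding member of the family, was close to the detection limit in adult skin. It had 0.0340 and 0.0171 RPKM in P60 KO skin and 0.0222 and 0.0124 RPKM in P60 WT skin, which amount to about 5 to 19 reads. At P1 it had 0.972, 1.00 and 1.12 RPKM in KO skin and 1.21, 0.669 and 0.938 RPKM in WT skin, or about 192 to 361 reads. The ages did not overlap, and the P1 WT libraries spread more widely than the P1 KO libraries. The ratio of mean RPKM, P1 over P60, was 45.9, the highest among the members, yet the log2 change was -1.50 (95% interval -1.78 to -1.22, limma adjusted p = 1.95e-06). The added 0.5 RPKM understates the change of so low a gene, and with 0.1 RPKM added the log2 change was -3.14. Igf2bp1 lies at chr11:95957163-96005940 on the minus strand, 811 kb from the ablated Dlx4 gene.

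Hmga2, the more strictly embryonic of the AT-hook genes, resembled Igf2bp1 in level. It had 0.108 and 0.0431 RPKM in P60 KO skin and 0.0671 and 0.0489 RPKM in P60 WT skin, from about 8 to 27.3 reads. At P1 it had 1.54, 1.1 and 1.67 RPKM in KO skin and 2.15, 0.884 and 1.76 RPKM in WT skin. The ages did not overlap, but the P1 libraries differed among themselves by up to 2.43-fold, the widest spread of the 5 tested members. The log2 change was -1.80 (95% interval -2.21 to -1.39, limma adjusted p = 7.61e-06), with a mean of 0.0667 ± 0.0292 RPKM at P60 (SD, n = 4) and 1.52 ± 0.459 RPKM at P1 (SD, n = 6). With 0.1 RPKM added it was -3.24. Hmga2 lies at chr10:120361275-120476469 on the minus strand. Hmga2-ps1, listed in the table as a separate entry, went the other way, at 2.46 to 4.79 RPKM at P60 and 1.80 to 2.62 RPKM at P1 (log2 change 0.58, limma adjusted p = 0.00113), and the ages overlapped. The change was called in KO skin (0.83, adjusted p = 0.00144 in limma) and not in WT skin (0.33, adjusted p = 0.098), and their difference was not called (0.50, adjusted p = 0.241). With size factors the change over both genotypes was 0.94 and with quantile normalization 1.08.

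Hmga1, which many dividing cells express, was the one member still abundant in the adult. It had 18.6 and 19.3 RPKM in P60 KO skin and 14.7 and 16.1 RPKM in P60 WT skin. At P1 it had 46.6, 45.1 and 43.4 RPKM in KO skin and 43.6, 42.3 and 42.8 RPKM in WT skin. The P1 libraries lay within 1.1-fold of each other, and all P60 libraries lay below them. The log2 change was -1.34 (95% interval -1.47 to -1.21, limma adjusted p = 4.05e-08), from means of 17.2 ± 2.16 RPKM at P60 (SD, n = 4) and 43.9 ± 1.59 RPKM at P1 (SD, n = 6). At P60, 83.4% of entries above 0 were lower than Hmga1, and at P1 93.5% were. Hmga1 lies at chr17:27556497-27563674 on the plus strand.

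Lin28b was barely detected at either age. It had 0.00556 and 0 RPKM in P60 KO skin and 0 and 0.00763 RPKM in P60 WT skin, at most about 2 reads and below the limit of 3 reads taken here. At P1 it had 0.0498, 0.0168 and 0.0119 RPKM in KO skin and 0, 0.0108 and 0.0291 RPKM in WT skin, up to about 11.9 reads in P1 KO replicate 1. With the genotypes pooled the ages overlapped, as did the genotypes at each age. Within KO skin the 3 P1 libraries lay above the 2 P60 libraries, but 2 of the 3 held at most 3 reads. The gene did not pass the filter of 1 RPKM in 2 libraries, and a difference was not detectable at this depth. The limit of 3 reads corresponded to 0.00836 to 0.0129 RPKM at P60 and 0.0125 to 0.0179 RPKM at P1, and covers counting error only. Its relative Lin28a, which blocks let-7 maturation too, had a low mean of 0.0305 RPKM at P60 and 0.0599 RPKM at P1, above that of Lin28b at 0.0033 RPKM at P60 and 0.0197 RPKM at P1, and did not pass the filter either.

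**Figure D1:**
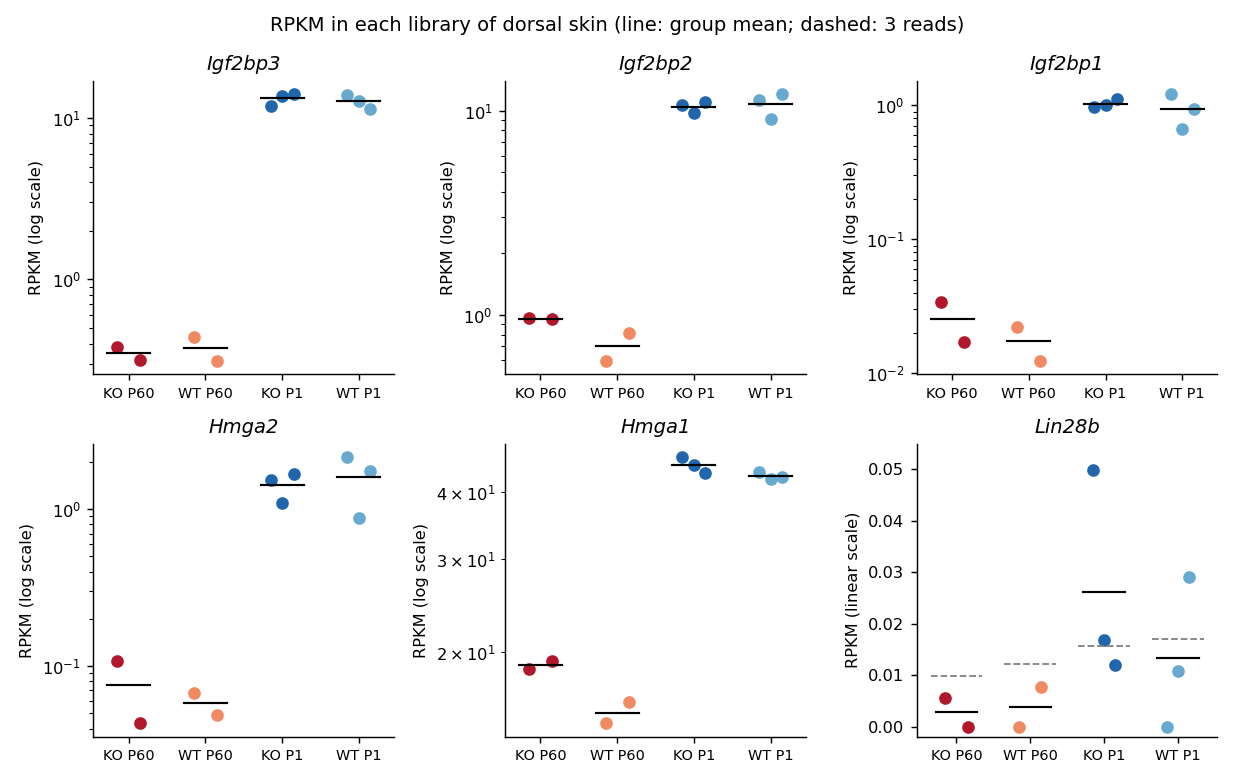
RPKM of the 6 genes in each library of P60 KO, P60 WT, P1 KO and P1 WT skin, on a log axis except for Lin28b, with a line at the group mean; dashed lines mark 3 reads for Lin28b. For 5 genes all P60 libraries lie below all P1 libraries, with Hmga1 highest at 14.7 to 19.3 RPKM at P60, while Lin28b stays at or below 0.0498 RPKM.

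For each of the 5 tested genes the exact two-sided permutation test over the 10 libraries gave p = 0.00952, the smallest that 4 against 6 allows. Low values at P60 were common. Of all tested genes 57.3% were called lower at P60 and 24.3% higher, the groups were non-overlapping and lower in 50.1%, and the median log2 change was -0.389. The 5 members were called lower and did not overlap. However, Igf2bp1, Igf2bp2, Igf2bp3 and Hmga2 passed the filter through P1 libraries alone, and the members were chosen with earlier results of these data known. This count, the members' p-values for age and their ranks among tested genes are therefore not support for a difference. After scaling by median-of-ratios size factors the median of all genes was 0.004, and the log2 changes were -3.68 for Igf2bp3, -2.74 for Igf2bp2, -1.64 for Hmga2, -1.37 for Igf2bp1 and -0.92 for Hmga1. By the plain ratio of RPKM, the share of tested genes with as low a P60 level relative to P1 was 1.65% for Igf2bp1, 1.78% for Igf2bp3, 2.2% for Hmga2, 3.17% for Igf2bp2 and 17.6% for Hmga1. In P1 KO replicate 2, the P1 library with Y-linked RNA, each of the 5 lay within the range of the other 5 P1 libraries. In bulk skin, fewer cells of a type and less RNA per cell cannot be told apart.

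The age difference was present in both genotypes. Their libraries are different, but whether the animals came from shared litters is not given. In both genotypes run differed with age, and so did sex except in P1 KO replicate 2. The fit also shares its estimate of the spread between them. Igf2bp3 changed by -4.01 in KO and by -3.91 in WT skin on the log2 scale, and Igf2bp2 by -2.91 in KO and by -3.22 in WT skin. Igf2bp1 changed by -1.54 in KO and -1.46 in WT skin, Hmga2 by -1.74 in KO and -1.86 in WT skin, and Hmga1 by -1.22 in KO and -1.45 in WT skin. The limma adjusted p was at most 0.000206, that of Hmga2 in KO skin. Called lower at P60 were 49.2% of all tested genes in KO and 56.0% in WT skin. With 2 against 3 libraries a permutation test cannot go below 0.2. The difference between the genotypes' age changes was tested as an interaction, and it was not called for any member. It was largest for Igf2bp2 at 0.31 (95% interval -0.12 to 0.75, limma adjusted p = 0.354) and for Hmga1 at 0.23 (-0.04 to 0.49, adjusted p = 0.275). Over all genes limma called 0 interactions (0.0%), with 3214 genes at an unadjusted p under 0.05, 465 called with array weights, 755 without P60 KO replicate 2, 271 without P60 WT replicate 2 and 1 without P1 WT replicate 2.

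**Figure D2:**
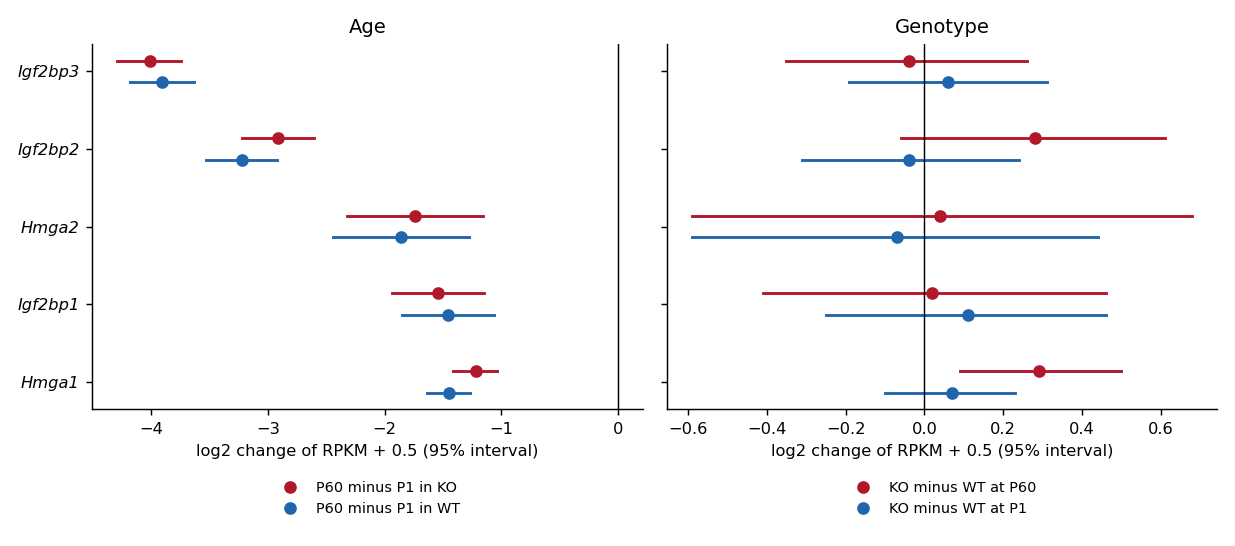
Log2 change of RPKM + 0.5 with its 95% interval from limma for the 5 tested genes, P60 minus P1 within each genotype (left) and KO minus WT at each age (right). Age changes run from -4.01 to -1.22 and no interval reaches 0, while of the genotype changes only that of Hmga1 at P60, 0.29, has an interval that leaves out 0.

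In adult skin Hmga1 and Igf2bp2 were nominally higher in KO than in WT samples, and neither was called. Hmga1 averaged 19 ± 0.447 RPKM in P60 KO and 15.4 ± 1.00 RPKM in P60 WT skin (SD, n = 2 each). Its log2 difference was 0.29 (95% interval 0.09 to 0.50, limma adjusted p = 0.0622). It moved to 0.14 with size factors (adjusted p = 0.371). Without P1 WT replicate 3, which enters through the shared spread, it was called (adjusted p = 0.049), and over all alternatives the adjusted p ran from 0.049 to 0.371. Igf2bp2 averaged 0.955 ± 0.00545 RPKM in P60 KO and 0.705 ± 0.155 RPKM in P60 WT skin (SD, n = 2 each), a log2 difference of 0.28 (95% interval -0.06 to 0.61, adjusted p = 0.231 in limma). It was 0.15 without P60 WT replicate 1 and 0.04 with quantile normalization, and called in neither. For both genes the KO libraries lay above the WT libraries, as did 42.7% of all tested genes, and 18.8% lay below. With 2 against 2 libraries a permutation test cannot go below 0.333.

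Igf2bp1, Igf2bp3 and Hmga2 overlapped between genotypes at P60. Their log2 differences were 0.02 for Igf2bp1 (95% interval -0.41 to 0.46), -0.04 for Igf2bp3 (-0.35 to 0.26) and 0.04 for Hmga2 (-0.59 to 0.68). Over all genes 11.1% were called at P60, with 8.21% above and 2.91% below WT, and the median log2 difference was 0.127. That count, 1560 genes, was 0 without P60 KO replicate 1 or without P1 KO replicate 2, 1 without P60 WT replicate 1, 3 without P1 WT replicate 1 and 27 without P1 KO replicate 3. It was 636 without P1 KO replicate 1, 762 without P60 WT replicate 2 and 2443 without P1 WT replicate 3. Cell type markers differed between the P60 genotypes. The 9 fibroblast markers summed to 9610 to 23200 RPKM in KO and 4280 to 5310 RPKM in WT skin, with 7 of 9 called higher, and the 12 skeletal muscle markers to 16200 to 27700 RPKM in KO and 37700 to 42300 RPKM in WT skin, with 1 of 12 called lower. The leukocyte markers summed to 113 to 138 RPKM in KO and 43.3 to 69.8 RPKM in WT skin, with 5 of 7 called higher. Their part in the values of Hmga1 and Igf2bp2 was not tested.

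In newborn skin the genotypes overlapped for all 6 genes. Hmga1 averaged 45.0 ± 1.59 RPKM in KO and 42.9 ± 0.672 RPKM in WT skin (SD, n = 3 each), a log2 difference of 0.07 (95% interval -0.10 to 0.23). Igf2bp3 differed by 0.06 (-0.19 to 0.31), Igf2bp2 by -0.04 (-0.31 to 0.24), Igf2bp1 by 0.11 (-0.25 to 0.46) and Hmga2 by -0.07 (-0.59 to 0.44). All adjusted p in limma were 1.0, and 3 against 3 libraries cannot go below a permutation p of 0.1. Limma called 0 of all tested genes (0.0%), with 130 at an unadjusted p under 0.05, 26 called with array weights and 1 without P1 KO replicate 3. The groups were non-overlapping for 4.56% of genes. P1 WT replicate 2 was the lowest of the 6 libraries for Igf2bp1, Igf2bp2, Hmga1 and Hmga2, and P1 WT replicate 3 for Igf2bp3. In the authors' deposited table the ratios of KO over WT for the 6 genes ran from 0.948 for Igf2bp3 to 1.32 for Igf2bp2 at P60 and from 0.947 for Hmga2 to 1.11 for Igf2bp1 and Lin28b at P1, with no q-value under 0.887.

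Genes that make and degrade let-7 were followed beside the members. This list and those below were chosen with earlier results of these data known. Some of the listed genes, such as Mycn, at most 0.304 RPKM at P60, passed the filter through P1 libraries alone. The counts of called genes are therefore descriptions and not support for a result about any list. Of 15 tested, 14 were called lower at P60, 0 higher and 1 not, against 57.3% lower and 24.3% higher over all tested genes. Their median log2 change was -1.1, against -0.389 over all tested genes, a shift near which Drosha and Dis3l2 of this list lay. Dgcr8, a subunit of the Microprocessor that cuts primary microRNAs, had 4.47 ± 0.812 RPKM at P60 and 13.2 ± 0.553 RPKM at P1 (SD, n = 4 and 6, log2 change -1.47). Zcchc11, which adds uridines to let-7 precursors bound by Lin28, changed by -1.28. The helicase Ddx17 changed by -1.19 and Syncrip, an RNA-binding protein of the hnRNP family, by -1.79. Tarbp2, the double-stranded RNA-binding partner of Dicer1, changed by 0.07 and was not called. Xpo5, which exports precursors, changed by -1.58, Dicer1 by -0.91, Drosha by -0.41, Ago1 by -0.62, Ago2 by -1.03, and Dis3l2, the nuclease that degrades uridylated let-7, by -0.46. Zcchc6 changed by -1.1, Ddx5 by -1.34, Khsrp by -0.91 and Hnrnpa1 by -1.76. Lin28a and Trim71 did not pass the filter.

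Of 39 tested textbook let-7 target genes other than the members, 31 were called lower at P60, 4 higher and 4 not, against 57.3% lower and 24.3% higher over all tested genes. Their median log2 change was -0.99, against -0.389 over all. Mycn, a growth-promoting transcription factor, changed by -4.25 and had 0.213 ± 0.108 RPKM at P60 and 13 ± 1.39 RPKM at P1 (SD, n = 4 and 6). Aurkb, a mitotic kinase, changed by -3.64 and the transcription factor Arid3a by -2.14. The 4 called higher were Col1a2 (1.59), E2f6 (0.81), Cdc34 (0.75) and Hras (0.24). Aurkb is also on the list of dividing-cell genes, and Dicer1 on that of the genes that make and degrade let-7. Let-7 itself was not measured, so these values say nothing of its level.

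Of 16 tested transcripts known to be bound by Igf2bp proteins, 9 were called lower at P60, 4 higher and 3 not, with a median log2 change of -0.46. These shares were near those over all tested genes, 57.3% lower and 24.3% higher, and are no result about the list. Igf2, the fetal growth factor that gave the family its name, had 3.90 ± 1.06 RPKM at P60 and 342.0 ± 60.5 RPKM at P1 (SD, n = 4 and 6, log2 change -6.30, limma adjusted p = 1.93e-09). Marcksl1 changed by -2.17 and the cyclin gene Ccnd1 by -2.0, while Ccng1, a cyclin of the p53 response, changed by 1.44. The list of the Hmga and Plag growth genes shares Igf2, H19 and Igf1r with this one, and Igf1r and Plagl2 with the let-7 targets. Of its 14 tested genes 12 were called lower, 1 higher and 1 not. Their median log2 change was -1.62, against -0.389 over all. The imprinted genes Dlk1, Mest and Plagl1 changed by -6.59, -6.25 and -3.75.

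Other genes of the same protein classes were also followed. Of 11 tested HMG-box and HMGN genes 10 were called lower at P60, 0 higher and 1 not, against 57.3% lower and 24.3% higher over all tested genes. Their median log2 change was -1.30, against -0.389 over all. Hmgb3 changed by -3.13, Hmgb2 by -2.73, Hmgn2 by -1.31 and Hmgxb4 by -1.30, and all encode chromatin proteins other than AT-hook proteins. Of 31 tested KH-domain and developmental RNA-binding proteins 18 were called lower, 7 higher and 6 not, shares near those over all tested genes, with a median log2 change of -0.62. These counts are no result about the list. Msi1, a translational regulator of stem cells, changed by -2.24, Fubp1 by -2.11, Fubp3 by -1.74 and Rbms1 by -1.57. The largest change among the 7 called higher was 2.33.

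Genes of dividing cells were called lower at P60 in 24 of 24 tested, against 57.3% over all tested genes, with a median log2 change of -3.22. Their summed level was 96.8 to 122 RPKM in P60 KO, 80.7 to 96.0 RPKM in P60 WT, 642 to 700 RPKM in P1 KO and 493 to 747 RPKM in P1 WT skin. Ccnb2 changed by -3.55, Bub1b by -3.52 and Plk1 by -3.47, all regulators of mitosis. The 10 hair matrix and shaft markers were called lower as well, and summed to 5.22 to 9.15 RPKM at P60 and 991 to 1840 RPKM at P1. The 12 skeletal muscle markers summed to 16200 to 42300 RPKM at P60 and 3880 to 8100 RPKM at P1, with 10 called higher and 2 lower, Myh3 (-4.88) and Myh8 (-7.99), the embryonic and perinatal myosins. Erythroid markers were called lower in 6 of 7, a count in which the entries Hbb-bt and Hbb-b2 hold the same values. Melanocyte markers were called lower in 5 of 5, and Schwann cell markers higher in 4 of 5. Over all tested genes 57.3% were called lower and 24.3% higher. These lists moved with age beside all 5 tested members, and their part in the members' values was not tested.

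**Figure D3:**
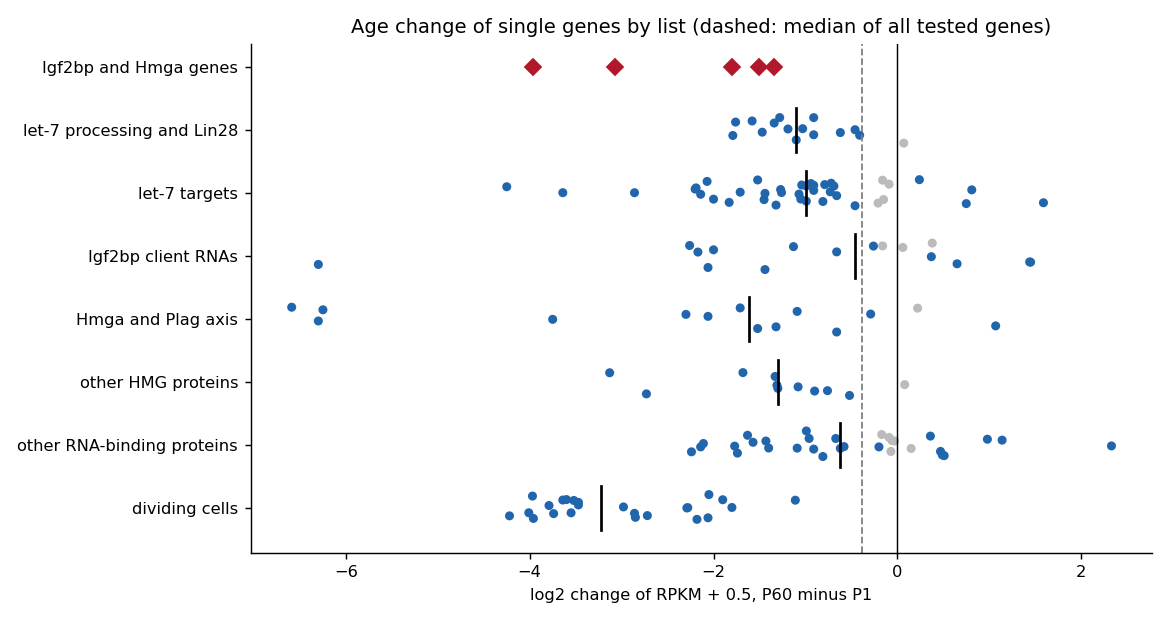
Log2 change of RPKM + 0.5, P60 minus P1, of each tested gene in the lists (blue: called, grey: not called in limma), with black bars at list medians and a dashed line at the median of all tested genes, -0.389. The 5 Igf2bp and Hmga genes (red diamonds) lie between -3.96 and -1.34; the lowest list median is that of dividing cells, -3.22.

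**Figure D4:**
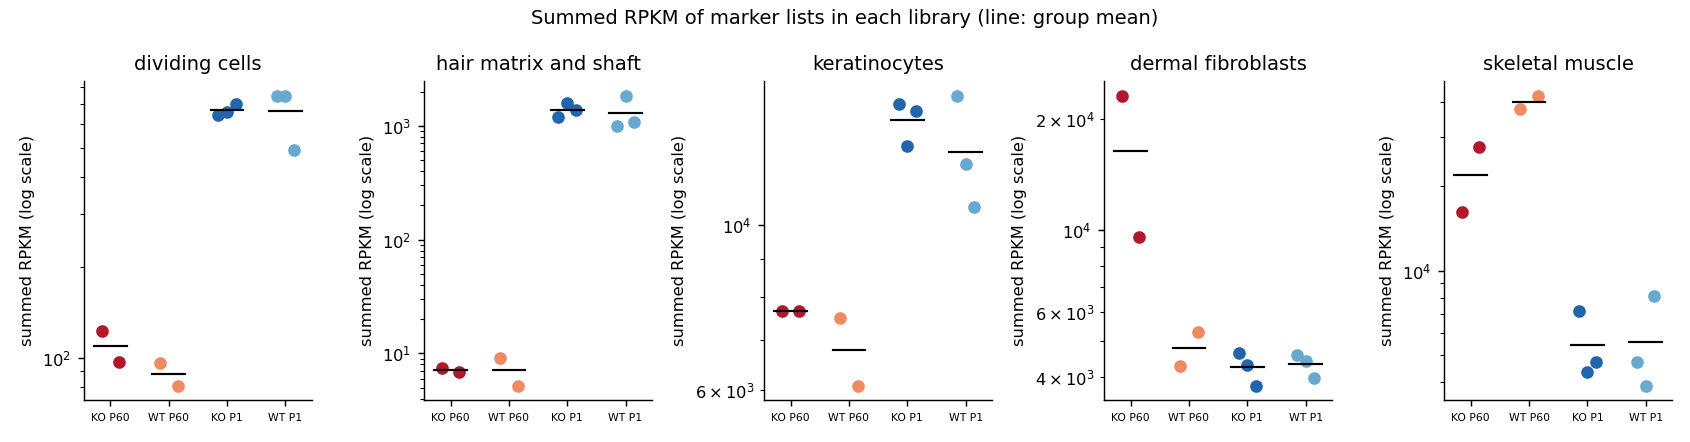
Summed RPKM of 5 marker lists in each library of P60 KO, P60 WT, P1 KO and P1 WT skin on log axes, with a line at the group mean. Dividing-cell and hair matrix genes are lower at P60 in every library, skeletal muscle genes are higher, and fibroblast genes are highest in the 2 P60 KO libraries, at 9610 to 23200 RPKM.

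At P60 a minority of the genes of these lists differed between genotypes. In KO skin 3 of 15 genes of let-7 processing were called higher, Khsrp (log2 difference 0.52), Zcchc6 (0.48) and Dgcr8 (0.38), and 0 lower. Of the let-7 targets 6 of 39 were called higher, with Aurkb at 0.94 and Col3a1, a collagen gene also among the fibroblast markers, at 1.72, and 0 lower. Of the Igf2bp clients 1 of 16 was called lower, Ccng1 at -0.62, and 0 higher. Of the HMG genes 0 of 11 were called, of the RNA-binding proteins 5 of 31 higher, among them Fubp3 (0.66) and Rbms1 (0.65), and 1 lower. Khsrp is on the list of RNA-binding proteins as well as that of let-7 processing, and is counted in both. Plagl1 (0.63) and E2f1 (0.57) were called higher among 14 Hmga and Plag genes, and Aurkb alone among 24 dividing-cell genes. These shares stand beside 8.21% higher and 2.91% lower over all genes and rest on calls that the leave-one-out counts given above show to depend on single libraries. At P1 0 genes of any of these lists were called.

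The tested members were all lower at P60 than at P1, but by different amounts. Likeness over the 10 libraries was measured as the root mean square difference of centred log2(RPKM + 0.5) values. These were not scaled, so the measure depends on the size of the age difference, and genes with a similar age change come out as near. Tnc, for example, changed by -3.95 and Igf2bp3 by -3.96. Igf2bp3 was nearest to Tnc (0.10), Serpina9 (0.114) and Col12a1 (0.122), of which Tnc and Col12a1 encode extracellular matrix proteins. Igf2bp2 was nearest to Atp13a4 (0.122), the signalling gene Wnt10b (0.149) and Tspear (0.158). Hmga1 was nearest to Pola2 (0.0692), a subunit of DNA polymerase alpha, Eif4ebp2 (0.0722) and Bace1 (0.0733). Hmga2 was nearest to the transcription factor gene Sox11 (0.119), Tub (0.161) and Zdbf2 (0.164), and Igf2bp1 to Zfp184 (0.086), Cd200r3 (0.0945) and Prdm11 (0.104). On this scale the nearest pair among the members was Igf2bp1 and Hmga1 at 0.176. Each was farther from the other than from its own nearest genes. Igf2bp2 and Igf2bp3 differed by 0.485. The added 0.5 RPKM understates the changes of Igf2bp1 and Hmga2, so their distances and nearest genes hold for this scale only. The ratio of mean RPKM, P1 over P60, was 45.9 for Igf2bp1 and 2.56 for Hmga1. With 0.1 RPKM added, the log2 changes of these 2 genes were -3.14 and -1.36.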

How the data were processed

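Total RNA of dorsal skin was sequenced in 10 libraries, with cDNA from a NEBNext kit and libraries from a NuGen kit, per the labels' protocols. Reads were aligned to mm10 with TopHat2 2.1.0 and handled in Partek, per the submitters' processing notes; the sources used here do not name the annotation. Gene values were deposited as RPKM, made by the authors. The authors' comparison table holds log2 group means, a linear ratio of KO over WT, p-values and q-values. The authors' library sheet gives alignments and run.

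Limma 3.58.1 (R 4.3.3) was applied to log2(RPKM + 0.5) of the 14026 entries with at least 1 RPKM in at least 2 libraries. A mean per group was fitted to all 10 libraries with a variance trend, Benjamini-Hochberg adjustment was done per contrast, and a gene was called at an adjusted p under 0.05. The steps were tested on simulated data. Permutation tests were exact and two-sided. Approximate reads came from the spacing of low RPKM values, of which 51.4% to 56.7% lay within 0.05 of a whole read at the best-fitting scale, and from GENCODE M21 exon lengths, so they are rough and no count test was run. They gave 31000000 to 66500000 reads per library. Spreadsheet software had turned 26 symbols into dates.

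The members and gene lists were chosen with earlier results of these data known. The text names the members, from each list up to 4 called genes of smallest p for age and up to 2 for KO against WT at P60, the whole let-7 processing list, and the 3 genes nearest in profile to each member. Dgcr8 between genotypes at P60, the let-7 targets called higher at P60, the overlapping genes, genes shared between lists, Hmga2-ps1 and the sex-linked genes were added after their values were seen. Some genes that the rule names are left out of the text, though they stay in the fits and list counts. Alternatives were the added constant, the filter, quantile and size-factor scaling, array weights, the variance trend, a replicate block, fits of only the groups compared and leaving out each library.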

Additional observations from a re-analysis of the deposited data

How the results depend on the processing

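The direction and call of all 5 tested members at P60 against P1, averaged and within each genotype, were the same in 289 of 289 values under the alternatives; with a filter of 2 RPKM only 3 members were tested, all 3 called, since Igf2bp1 and Hmga2 dropped out. Over alternatives the age change ran from -4.82 to -3.35 for Igf2bp3, -3.54 to -2.60 for Igf2bp2, -3.24 to -1.22 for Hmga2, -3.14 to -0.92 for Igf2bp1 and -1.37 to -0.92 for Hmga1.

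The number of genes called between genotypes depended on the setting, and the cause was not tested. At P60 it was 502 without a filter, 55 with quantile normalization, 741 with array weights, 2 with the replicate block, 0 with only the groups compared, and 0 to 2443 on leaving out 1 library. At P1 it was 2 without a filter, 26 with array weights and 0 to 1 on leaving out 1 library. For the interaction it was 2 with 0.1 RPKM added, 19 without a filter, 3 with size factors, 465 with array weights and 0 to 755 on leaving out 1 library. Members called at P60 numbered 0 to 1 on leaving out 1 library.

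Uncalled genotype differences changed sign with quantile normalization for Igf2bp1 (-0.029) and Hmga2 (-0.0413) at P60 and for the interaction of Hmga2 (-0.0032), and with array weights for Igf2bp1 at P1 (-0.0938) and in the interaction (0.12). On leaving out 1 library the P60 difference ran from -0.00044 to 0.046 for Igf2bp1, -0.15 to 0.0595 for Igf2bp3 and -0.0388 to 0.12 for Hmga2. At P1 it ran from -0.034 to 0.24 for Igf2bp1, -0.15 to 0.0442 for Igf2bp2, -0.0094 to 0.13 for Igf2bp3 and -0.35 to 0.12 for Hmga2. The interaction ran from -0.22 to 0.0568 for Igf2bp1 and -0.0783 to 0.39 for Hmga2.

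Same-numbered replicates correlated in their deviations from the group mean at 0.236 at P60 and at -0.166, 0.244 and -0.259 at P1. With 2 libraries per group at P60 the deviations mirror each other, so differently numbered replicates had -0.236. These values cannot decide whether the numbers pair the samples. The replicate block left every member's call as it was (Hmga1 at P60: 0.29, adjusted p = 0.128 in limma). Limits are the 2 libraries per genotype at P60, the run and sex that differ with age, the few reads behind Igf2bp1, Hmga2 and Lin28b at P60, and the unknown annotation and strand of counting.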

Other observations

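The table also lists 13 of 14 let-7 transcript entries. Most were at or near 0 in every library. Mirlet7d, which alone passed the filter, had 0.425 ± 0.493 RPKM at P60 and 0.733 ± 0.481 RPKM at P1 (SD, n = 4 and 6) and was not called (log2 change -0.46, limma adjusted p = 0.202). Mir99ahg, the long transcript that hosts let-7c-1, did not pass the filter and had 0.813 ± 0.141 RPKM at P60 and 0.333 ± 0.0361 RPKM at P1 (SD, n = 4 and 6). None of these entries measures mature let-7.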
